A study of Rattus norvegicus with 6 samples.

Results

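Genes of the glucocorticoid system, 9 of 19382 in the deposited count table, were followed through brain tissue of rats after hypoxia-ischemia (HI) and of control rats. They were chosen by symbol: the receptors Nr3c1 and Nr3c2, the cortisone and 11-dehydrocorticosterone reductase Hsd11b1, and the target genes Fkbp5, Tsc22d3, Sgk1, Zbtb16, Errfi1 and Pdk4. All 9 had 1 row each, with whole read numbers, and all 9 passed the filter on low counts. The HI group held 3 libraries from Sprague-Dawley (SD) rats given 2.5 h of HI at 7 days of age, a model of injury to the newborn brain, and the control group held 3 libraries of rats with control treatment. The labels give no region, hemisphere, sex, sampling interval or age of the controls, and do not say whether each library came from its own animal. The p-values below therefore cover only the variation among these 6 samples, some of which may be technical. The compound named in the title of the series, echinatin, is not among the treatments of these libraries.

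Corticosterone, the main glucocorticoid of the rat, crosses cell membranes and binds 2 nuclear receptors. The mineralocorticoid receptor, encoded by Nr3c2, binds it tightly and is abundant in the hippocampus, whereas the glucocorticoid receptor, encoded by Nr3c1, is present in nearly all brain cells and is filled when the hormone is high, as in stress. Bound receptors move to the nucleus and act on genes through glucocorticoid response elements, often far from the start of the gene, and Fkbp5, Tsc22d3, Sgk1, Zbtb16, Errfi1 and Pdk4 are among the genes that glucocorticoids are known to induce in many cell types.

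Libraries held 14324303 to 14927469 estimated reads in HI and 13922663 to 14692505 in controls. Levels are CPM, reads scaled to library size, with TMM factors, which reduce differences in depth and composition, and they do not allow for gene length, so levels of different genes are not compared. Libraries differed in tissue content. Summed CPM of 9 choroid plexus markers were 225, 8494 and 15865 in HI 1, 2 and 3 and 30.1, 2336 and 33.7 in controls 1, 2 and 3. Summed CPM of 8 excitatory neuron markers were 548, 817 and 610.4 in the HI libraries and 2073, 2149 and 1626 in the controls, and all 8 were above 0 in every library. Emx1, a homeobox gene of developing cortex and hippocampus chosen after its values were seen, stood at 0.736, 1.48 and 2.18 CPM in the HI libraries, and at 41.0, 50.6 and 4.27 CPM in controls 1, 2 and 3. Control 3 thus lay nearer the HI libraries than the other controls for Emx1. Other genes of its marker list, hippocampus and dorsal telencephalon, were also named after their values were seen. In controls 1, 2 and 3 Neurod1 had 44.4, 29.7 and 7.11 CPM, Lhx2 82.2, 80.0 and 19.2, and Fezf2 31.3, 41.4 and 0.824. Wfs1 and Lmo3 went the other way and were highest in control 3 (68.1 and 276 CPM). Emx2, Zbtb20 and Prox1 were highest in control 1. In such bulk tissue, fewer cells of a type and less RNA per cell cannot be told apart.

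The regions just before the starts of 3 members are shown because a glucocorticoid response element was searched for there. They are Pdk4, which rose in HI, Errfi1, whose HI libraries also all stood above the controls, and Fkbp5, a target commonly used as a readout of receptor activity. Sequences are from RefSeq, assembly GRCr8, on the strand of the gene, with the 250 bases before the annotated start: chr4:34568330-34568579 (minus strand), chr5:166606591-166606840 (plus strand) and chr20:6543556-6543805 (minus strand).
Pdk4: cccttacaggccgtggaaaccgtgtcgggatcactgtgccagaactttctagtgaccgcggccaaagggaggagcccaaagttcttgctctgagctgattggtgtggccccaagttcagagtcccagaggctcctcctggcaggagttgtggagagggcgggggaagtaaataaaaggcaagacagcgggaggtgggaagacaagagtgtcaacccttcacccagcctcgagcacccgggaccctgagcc
Errfi1: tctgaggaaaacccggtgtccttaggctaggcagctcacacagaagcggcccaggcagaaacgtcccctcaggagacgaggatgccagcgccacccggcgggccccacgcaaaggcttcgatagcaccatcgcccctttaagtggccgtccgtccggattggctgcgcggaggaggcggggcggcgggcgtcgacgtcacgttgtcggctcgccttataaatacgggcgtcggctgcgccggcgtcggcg
Fkbp5: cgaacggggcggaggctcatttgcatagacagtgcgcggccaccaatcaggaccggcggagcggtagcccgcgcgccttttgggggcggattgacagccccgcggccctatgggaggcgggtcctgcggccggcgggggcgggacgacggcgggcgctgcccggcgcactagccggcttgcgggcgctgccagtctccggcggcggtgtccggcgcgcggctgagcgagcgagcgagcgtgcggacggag
Capitals would mark the hexamer AGAACA, to which each receptor of a dimer binds, on either strand, and none is marked because it was not found in these windows. Of the 9 members 6 had an entry (Nr3c1, Fkbp5, Tsc22d3, Sgk1, Errfi1 and Pdk4). In the entries of 250 bases before and 50 after the start, 0 of 6 held the full element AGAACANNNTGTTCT, which holds the hexamer in both directions, and 0 of 6 held the hexamer. Of all 33469 entries of that length 0.0149% held the full element and 20.7% the hexamer, on either strand. No match says only that these letters are not in this window. The share of G and C was 61.3% for Pdk4, 67.3% for Errfi1 and 77% for Fkbp5.

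The design holds a single comparison, HI against control. Of the 9 members 1, Pdk4, was higher in HI and 0 were lower (quasi-likelihood test of edgeR, with p adjusted by Benjamini-Hochberg and a threshold of 0.05), where 13.9% of the 14959 genes tested were called, 6.83% higher and 7.04% lower. At an unadjusted p below 0.05 there were 4 of 9 members, Pdk4 and Errfi1 with higher and Nr3c2 and Zbtb16 with lower values in HI, where 36.5% of all tested genes passed, 19.1% higher and 17.4% lower in HI. Groups did not overlap for 3 of 9 members (Pdk4 and Errfi1 above, Nr3c2 below), where 42.3% of all genes did not, 21.5% above and 20.8% below. All of these counts lie near the background. The median log2 fold change of the members was -0.02, and that of all tested genes 0.04. DESeq2 called 3 of the 9, Pdk4 higher and Nr3c2 and Zbtb16 lower. It also called more of the whole table, 4200 genes against 2074 with edgeR. The edgeR count was 0 without HI 2, without control 1 or without control 2, and 2 without control 3. For the whole table the same fits called 0, 0, 1 and 1694 genes, so the loss was not particular to the members.

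**Figure D1:**
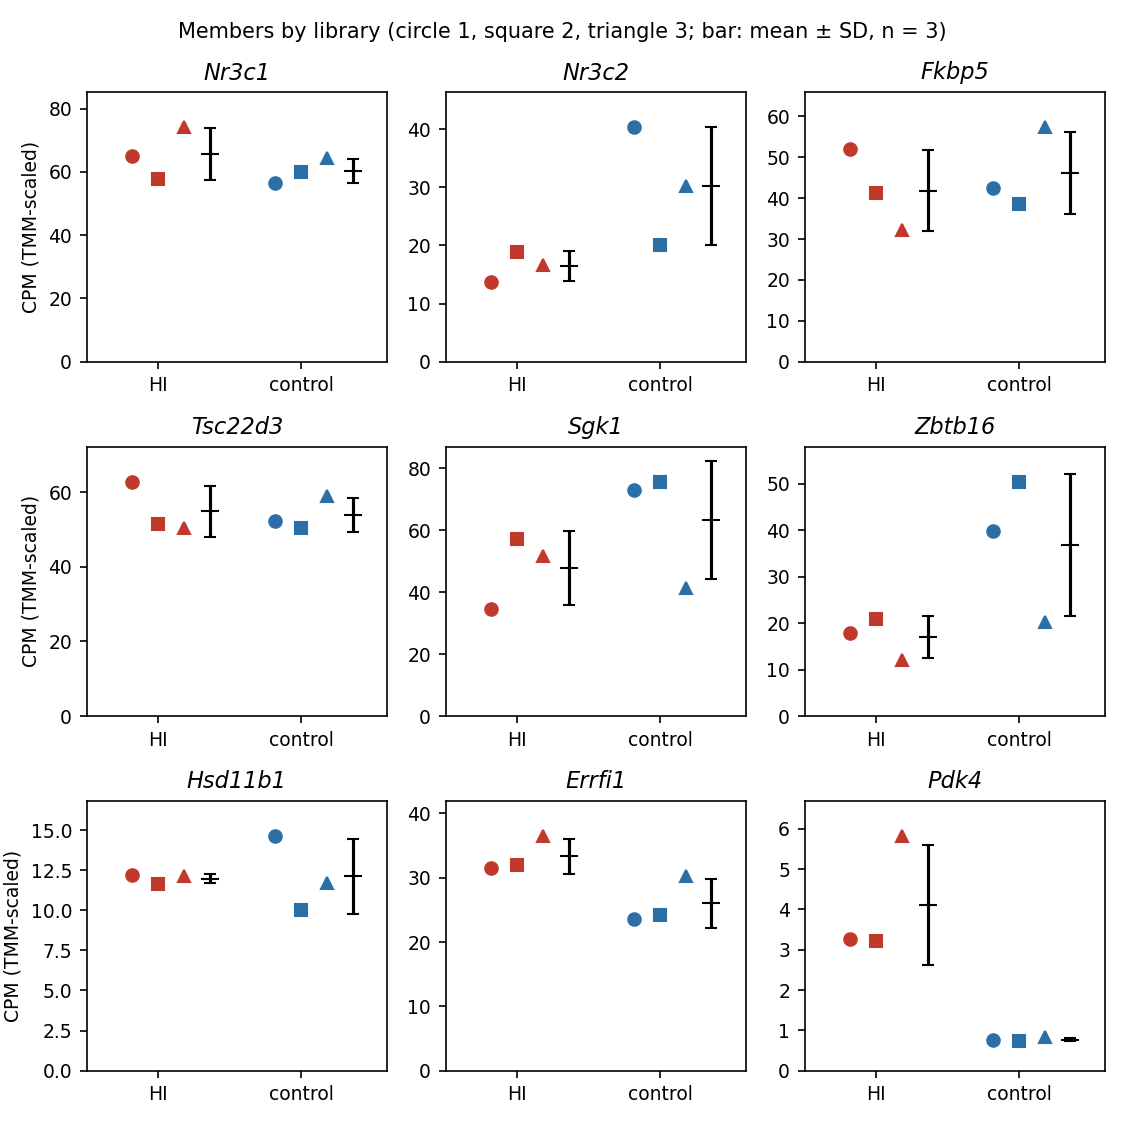
Level of each of the 9 members in CPM (vertical axis, from 0) in the 3 HI (red) and 3 control (blue) libraries, with the mean ± SD beside each group. Pdk4 in HI lies between 3.21 and 5.82 CPM, above all controls, whereas Nr3c1, Fkbp5, Tsc22d3, Sgk1, Zbtb16 and Hsd11b1 overlap between the groups.

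Among the receptors, Nr3c1 stood at 64.9, 57.9 and 74.2 CPM in HI 1, 2 and 3, against 56.6, 60.0 and 64.4 CPM in controls 1, 2 and 3. HI 3 was highest and control 1 lowest, and HI 2 fell among the controls, so the groups overlapped. The means were 65.7 ± 8.15 CPM in HI and 60.3 ± 3.92 CPM in controls (SD, n = 3 each), a log2 fold change of 0.12 ± 0.12 (SE) that did not pass (edgeR adjusted p = 0.50). Its 95% interval, not adjusted, ran from 0.889 to 1.33 times the control level. The interval does not account for tissue content or the choice of scaling. The log2 fold change was 0.099 with DESeq2 size factors and 0.32 with total counts.

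Nr3c2 stood at 13.8, 19.0 and 16.7 CPM in HI 1, 2 and 3, against 40.4, 20.0 and 30.2 CPM in controls 1, 2 and 3. The groups did not overlap, but HI 2 and control 2 were only about 1 CPM apart, and the controls spread far more widely than the HI libraries. The means were 16.5 ± 2.60 CPM in HI and 30.2 ± 10.2 CPM in controls (SD, n = 3 each). The log2 fold change was -0.87 ± 0.27 (SE), or 0.546 of the control level with a 95% interval from 0.348 to 0.856. It did not pass with edgeR (adjusted p = 0.0722) and passed with DESeq2 (adjusted p = 0.0149), which called 4200 genes of the whole table. The sum of excitatory neuron markers, given above, was lower in every HI library than in every control, and 3 of 8 markers fell and 0 rose. Within HI that sum and Nr3c2 had the same order, lowest in HI 1 and highest in HI 2. Among the controls the sum was highest in control 2 (2149), where Nr3c2 was lowest, and lowest in control 3 (1626). Summed CPM of all 10 markers of hippocampus and dorsal telencephalon were 147, 246 and 230 in HI 1, 2 and 3, against 544, 463 and 422 in controls 1, 2 and 3, with 2 of 9 tested falling and 0 rising. The makeup of that sum differed among the controls. Prox1, named after its values were seen, stood at 175, 24.1 and 38.4 CPM in controls 1, 2 and 3, and Lmo3 at 140, 206 and 276 CPM. The part of neuron or regional content in the Nr3c2 values was not tested.

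The balance of the receptors was followed within each library as the log2 ratio of Nr3c2 to Nr3c1 reads, which does not depend on scaling. The ratio does not allow for tissue content, and the part of neuron or regional content in it was not tested. Nr3c2 had 0.213, 0.328 and 0.225 reads per Nr3c1 read in HI 1, 2 and 3, against 0.714, 0.334 and 0.469 in controls 1, 2 and 3. The HI libraries were all below the controls, with HI 2 and control 2 nearly level. The mean log2 ratio was -1.998 ± 0.34 in HI and -1.05 ± 0.55 in controls (SD, n = 3 each), a difference of -0.94 (two-sided exact permutation test, p = 0.1, the smallest that 3 against 3 libraries allow). Since transcript lengths were not used, the ratio shows a difference between groups and not how many transcripts of each receptor were present.

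**Figure D2:**
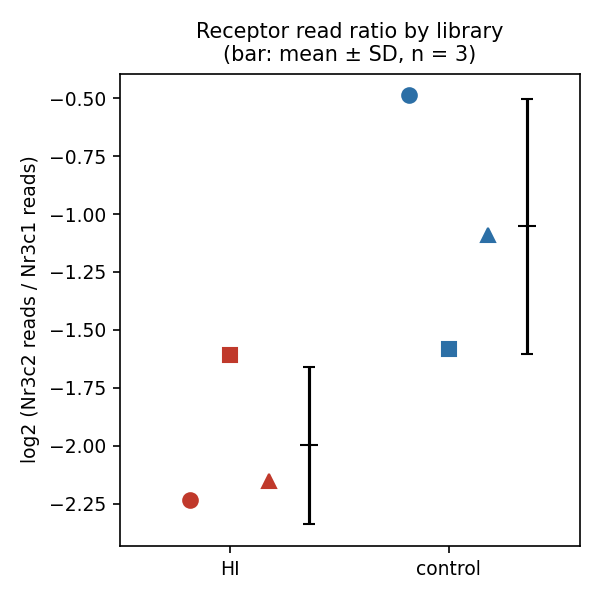
Log2 ratio of Nr3c2 to Nr3c1 reads (vertical axis) in the 3 HI (red) and 3 control (blue) libraries, with mean ± SD. The HI libraries lie between -2.23 and -1.61 and the controls between -1.58 and -0.49, so the gap between the nearest libraries is small beside the spread within each group.

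Hsd11b1 regenerates active corticosterone inside cells. It stood at 12.2, 11.6 and 12.1 CPM in HI 1, 2 and 3, against 14.6, 10.01 and 11.7 CPM in controls 1, 2 and 3. The HI libraries were tightly grouped within the range of the controls, and the log2 fold change of -0.02 ± 0.18 (SE) did not pass (edgeR adjusted p = 0.961, 95% interval from 0.729 to 1.34 times the control level). Its sign turned with upper-quartile and total-count scaling. Hsd11b2, the enzyme that inactivates corticosterone, was named after its values were seen and had 17, 18 and 17 reads in the HI libraries, against 76, 7 and 6 in controls 1, 2 and 3, and control 1 alone set its control mean.

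Fkbp5, a co-chaperone that lowers the hormone affinity of the glucocorticoid receptor and is itself induced by it, stood at 52.0, 41.2 and 32.3 CPM in HI 1, 2 and 3, against 42.6, 38.5 and 57.4 CPM in controls 1, 2 and 3. The highest library was a control and the lowest an HI library, and the groups overlapped throughout. The log2 fold change was -0.14 ± 0.22 (SE), with a 95% interval from 0.625 to 1.31 times the control level (edgeR adjusted p = 0.673). Tsc22d3 encodes GILZ, a leucine zipper protein that mediates part of the anti-inflammatory action of glucocorticoids. It stood at 62.8, 51.4 and 50.4 CPM in HI 1, 2 and 3, against 52.2, 50.3 and 59.1 CPM in controls 1, 2 and 3. The groups overlapped, and the log2 fold change was 0.03 ± 0.13 (SE), with a 95% interval from 0.824 to 1.26 times the control level (edgeR adjusted p = 0.897). For both genes the fold change took the other sign in some settings, Fkbp5 with total-count scaling and Tsc22d3 with no filter. Within the HI group both were highest in HI 1, and within the controls both were highest in control 3.

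Sgk1, a kinase that regulates ion channels and is a target of both receptors, stood at 34.4, 57.3 and 51.6 CPM in HI 1, 2 and 3, against 72.9, 75.7 and 41.3 CPM in controls 1, 2 and 3. HI 1 was lowest and control 3 next, so the groups overlapped through control 3. The log2 fold change was -0.40 ± 0.28 (SE), with a 95% interval from 0.471 to 1.21 times the control level, and did not pass (edgeR adjusted p = 0.341). Zbtb16 encodes PLZF, a zinc finger transcription factor. It stood at 17.99, 20.9 and 12.1 CPM in HI 1, 2 and 3, against 39.8, 50.4 and 20.2 CPM in controls 1, 2 and 3. Controls 1 and 2 were well above all HI libraries, and control 3 lay just below HI 2. The means were 17.0 ± 4.50 CPM in HI and 36.8 ± 15.3 CPM in controls (SD, n = 3 each). The log2 fold change of -1.11 ± 0.36 (SE) did not pass with edgeR (adjusted p = 0.0808). It passed with DESeq2 (adjusted p = 0.0174), which called 4200 genes of the whole table. Without control 3 the log2 fold change of Zbtb16 was -1.44 and passed (edgeR adjusted p = 0.0355). Over the fits that each left out 1 library it ran from -1.44 to -0.85, and the other 5 did not pass (edgeR adjusted p up to 0.211, without control 2). Sgk1 and Zbtb16 were both lowest among the controls in control 3. The part of tissue content in these values was not tested.

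Errfi1, an inhibitor of the epidermal growth factor receptor, stood at 31.5, 32.003 and 36.5 CPM in HI 1, 2 and 3, against 23.6, 24.1 and 30.3 CPM in controls 1, 2 and 3. All HI libraries lay above all controls, with control 3 close to HI 1. The means were 33.3 ± 2.74 CPM in HI and 26.01 ± 3.75 CPM in controls (SD, n = 3 each), a 1.28-fold difference with a 95% interval from 1.01 to 1.62, which did not pass (edgeR adjusted p = 0.125). Summed CPM of 8 astrocyte markers were 3312, 3259 and 4862 in HI 1, 2 and 3, against 1629, 1313 and 2136 in controls 1, 2 and 3, with 2 of 8 rising and 0 falling and the sum in control 3 the highest of the controls. Much of this difference came from Gfap, named after its values were seen, with 937, 1403 and 2306 CPM in HI 1, 2 and 3. Its controls 1, 2 and 3 had 146, 143 and 136 CPM. Aqp4 rose as well, whereas Slc1a2, Aldh1l1 and Aldoc had log2 fold changes of -1.45, -0.11 and -0.12 that did not pass. Slc1a3, Gja1 and S100b were above 0 and did not pass. The part of astrocytes in the Errfi1 values was not tested.

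Pdk4 encodes a pyruvate dehydrogenase kinase, which limits the entry of pyruvate into the citric acid cycle and is also induced by fasting and fatty acids. It had 49, 50 and 96 reads in HI 1, 2 and 3, against 10, 10 and 11 reads in controls 1, 2 and 3, which are 3.28, 3.21 and 5.82 CPM in the HI libraries and 0.757, 0.736 and 0.824 CPM in the controls. HI 1 and HI 2 were level, HI 3 was higher, and the controls were level at about the minimum count of the filter. The means were 4.10 ± 1.48 CPM in HI and 0.772 ± 0.046 CPM in controls (SD, n = 3 each), and Pdk4 rose 5.27-fold with a 95% interval from 2.90 to 9.58 (log2 fold change 2.40 ± 0.36 SE, edgeR adjusted p = 0.0220). Of all tested genes 1.91% had a larger log2 fold change. The call was lost without HI 2 (edgeR adjusted p = 0.0832), without control 1 (edgeR adjusted p = 0.0941) and without control 2 (edgeR adjusted p = 0.0937), with log2 fold changes of 2.54, 2.35 and 2.33, and 0 or 1 gene of the whole table was called in these 3 fits, against 2074 with all libraries. Over the fits that each left out 1 library the log2 fold change ran from 2.06 to 2.54.

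Marker sums of microglia and mural cells, like Pdk4, were higher in every HI library than in every control. Within HI both sums and Pdk4 were highest in HI 3. In HI 1 and HI 2 the sums were 267 and 347 for microglia and 166 and 329 for mural cells, where Pdk4 was level. Summed CPM of 8 microglia markers were 267 to 432 in HI and 125 to 179 in controls (6 of 8 rose and 0 fell), and of 8 mural cell markers 166 to 498 in HI and 87.1 to 112 in controls (3 of 8 rose and 0 fell), none of them at 0 in any library. Endothelial markers overlapped, with sums of 197 to 417 in HI and 237 to 320 in controls (1 of 8 rose and 0 fell). Choroid plexus sums overlapped between the groups. HI 1, with a plexus sum of 225, had 3.28 CPM of Pdk4, and control 2, with a plexus sum of 2336, had 0.736 CPM. The part of these cell types, choroid plexus included, in the Pdk4 difference was not tested. The related kinases Pdk1, Pdk2 and Pdk3, chosen after seeing the values, had log2 fold changes, HI over control, of -0.23 ± 0.11, 0.47 ± 0.18 and 0.17 ± 0.22 (SE), and none passed (edgeR adjusted p = 0.183, 0.114 and 0.607).

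**Figure D3:**
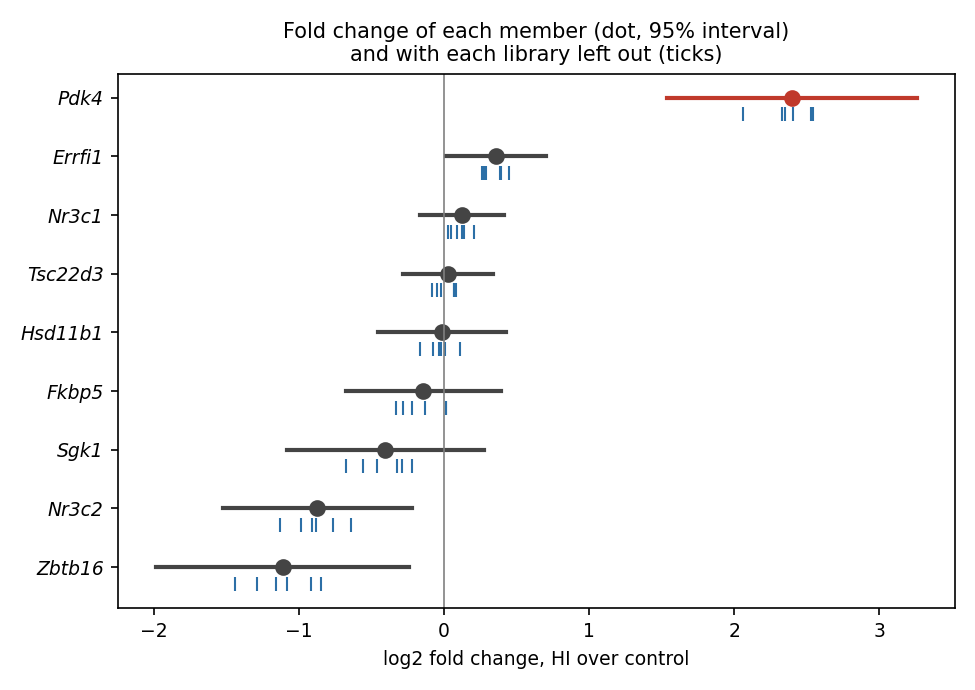
Log2 fold change of each member, HI over control (horizontal axis), as a dot with its unadjusted 95% interval, red where the edgeR adjusted p was below 0.05, and blue ticks for the 6 fits that each left out 1 library. Pdk4 at 2.40 stands apart, whereas Tsc22d3, Hsd11b1 and Fkbp5 have ticks on both sides of 0.

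Members did not share a single pattern over the 6 libraries. Likeness was measured as the root mean square difference of log2 CPM over the 6 libraries, each gene centred on its own mean. The closest pair was Nr3c1 with Errfi1 at 0.15, and the farthest Zbtb16 with Pdk4 at 1.74. Sgk1 and Zbtb16, both low in control 3, differed by 0.48. Outside the members, the genes closest to Nr3c1 were Fam13a (0.015), RGD1311847 (0.031) and Naa20 (0.036). Those closest to Nr3c2 were Adamts4 (0.16), Bspry (0.19) and Fbxl15 (0.22), and those closest to Pdk4 were Elf4 (0.15), Zc3h12d (0.15) and Parp9 (0.16). These values describe the 6 libraries and were not tested.

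Other genes of the pathway were taken from 5 lists with 85 genes, of which 84 were in the table and 76 could be tested. The lists were chosen with earlier results of these data known, so their counts are descriptive. Of the 76, 14 were higher and 9 lower in HI, beside the 13.9% of all tested genes that were called, and the median log2 fold change was 0.08. The count was 0 without HI 2, without control 1 or without control 2, and 10 without HI 3. In the whole table these fits called 0, 0, 1 and 644 genes. The split was 18 higher and 7 lower with total-count scaling and 7 and 9 with limma-voom, and for all genes the share of calls that were higher was 49.2% with TMM, 64.3% with upper-quartile and 74.7% with total-count scaling, which placed the median log2 fold change of all genes at 0.14 and 0.23.

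Chaperones that fold the receptor and hold it ready for hormone did not pass. Of 13 tested 0 were higher and 0 lower with edgeR, where 6.83% of all tested genes were higher and 7.04% lower. An unadjusted p below 0.05 was reached by 1, and the median log2 fold change was 0.01. With total-count scaling 2 were higher. Hsp90aa1, the inducible HSP90, stood at 1100, 1647 and 1580 CPM in HI 1, 2 and 3, against 968, 1055 and 991 CPM in controls 1, 2 and 3, a log2 fold change of 0.52 ± 0.19 (SE) that did not pass (edgeR adjusted p = 0.0985), and it shares reads with similar genes. Ppp5c, a phosphatase bound to the receptor complex, had a log2 fold change of -0.19 ± 0.09 (SE) and did not pass either (edgeR adjusted p = 0.197).

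Among coregulators, proteins that bind nuclear receptors on DNA, 0 of 14 rose and 5 fell, where 6.83% of all tested genes rose and 7.04% fell. The median log2 fold change was -0.41. With total-count scaling 1 was higher and 3 lower. Nrip1, a corepressor, had 25.5, 24.8 and 27.0 CPM in HI 1, 2 and 3, against 55.1, 66.6 and 42.3 CPM in controls 1, 2 and 3, and fell to 0.471 of the control level (edgeR adjusted p = 0.0235). The coactivator Ncoa1 fell to 0.652, the corepressor Ncor1 to 0.644, the arginine methyltransferase Carm1 to 0.725 and the histone deacetylase Hdac2 to 0.688 of the control level (edgeR adjusted p from 0.0270 to 0.0342). All HI libraries lay below all controls for these 5 genes. The part of the lower neuron marker sum in these falls was not tested.

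In steroid supply and inactivation 1 of 7 tested genes rose and 1 fell, where 6.83% of all tested genes rose and 7.04% fell. The median log2 fold change was 0.22. Tspo, a mitochondrial outer membrane protein that also serves as a marker of activated microglia, had 6.62, 14.5 and 25.2 CPM in HI 1, 2 and 3, against 0.985, 1.84 and 1.497 CPM in controls 1, 2 and 3, and rose 10.6-fold (edgeR adjusted p = 0.0233). HI 1 was the lowest HI library and still stood above every control. Srd5a1, a reductase that starts the inactivation of corticosterone in brain, had 17.1, 14.0 and 11.3 CPM in HI 1, 2 and 3, against 26.5, 25.0 and 23.0 CPM in controls 1, 2 and 3, and fell to 0.570 of the control level (edgeR adjusted p = 0.0372).

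Of the stress axis peptides and receptors 8 of 12 could be tested, and 1 rose and 0 fell, beside 6.83% and 7.04% of all tested genes. The median log2 fold change was 1.12. Crhr2, a receptor for urocortins, had 5.01, 10.4 and 15.03 CPM in HI 1, 2 and 3, against 0.909, 1.55 and 1.57 CPM in controls 1, 2 and 3, and rose 7.52-fold (edgeR adjusted p = 0.0235). Within HI it was lowest in HI 1 and highest in HI 3, as were the sums of choroid plexus, microglia, mural cell and endothelial markers. The microglia and mural cell sums, like Crhr2, were also higher in every HI library than in every control. In HI 1, with a plexus sum of 225, Crhr2 stood at 5.01 CPM, and in control 2, with a plexus sum of 2336, at 1.55 CPM. The part of these cell types, choroid plexus included, in the Crhr2 difference was not tested. Avp, the precursor of vasopressin and a marker of the hypothalamus, was named after its values were seen and had 104.8, 5.33 and 1.21 CPM in HI 1, 2 and 3, against 2.575, 0.221 and 0.524 CPM in controls 1, 2 and 3. HI 1 alone set its level, and it did not pass (edgeR adjusted p = 0.0982).

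Further genes that glucocorticoids can induce moved in both directions. Of 34 tested 12 rose and 3 fell, where 6.83% of all tested genes rose and 7.04% fell. The median log2 fold change was 0.55, and 13 rose and 3 fell with total-count scaling. Many of these genes are also known to respond to injury, cytokines or hypoxia. Mt2A, a metallothionein, had 26.6, 32.3 and 53.8 CPM in HI 1, 2 and 3, against 2.27, 2.06 and 3.14 CPM in controls 1, 2 and 3, and rose 15.03-fold (edgeR adjusted p = 0.0196), although reads it shares with similar genes make its values uncertain. Angptl4, an inhibitor of lipoprotein lipase, rose 5.17-fold and Cdkn1a, an inhibitor of the cell cycle, 3.84-fold (edgeR adjusted p = 0.0226 and 0.0234). Klf9, a transcription factor induced by both glucocorticoid and thyroid hormone, went the other way. It had 11.6, 15.6 and 16.7 CPM in HI 1, 2 and 3, against 49.8, 45.4 and 46.9 CPM in controls 1, 2 and 3, and fell to 0.309 of the control level (edgeR adjusted p = 0.0196), with a wide gap between groups that were each narrow. Arl4d, a small GTPase, fell to 0.408 of the control level (edgeR adjusted p = 0.0226). Per1, a clock gene with a well known response element, was named after its values were seen and had a log2 fold change of -0.30 ± 0.12 (SE) that did not pass (edgeR adjusted p = 0.119).

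**Figure D4:**
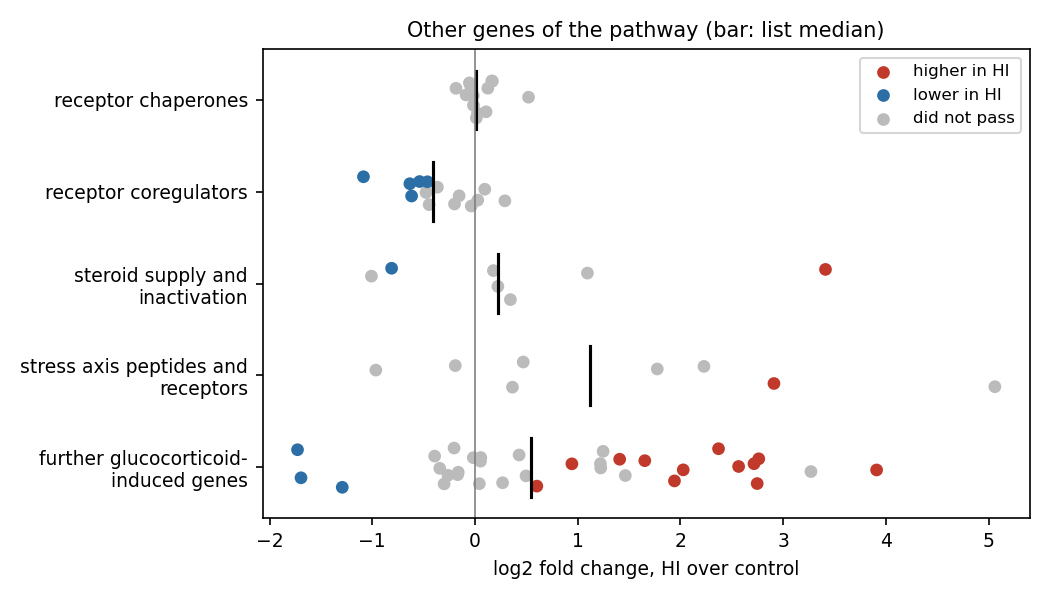
Log2 fold change, HI over control (horizontal axis), of the 76 tested genes in 5 lists of the pathway, coloured by call with edgeR, with a bar at each list's median. The chaperones gather near 0, the 5 called coregulators all lie below it, and the further glucocorticoid-induced genes run from -1.73 to 3.91.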

How the data were processed

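RNA of rat brain tissue was sequenced in 6 libraries, 3 HI and 3 control, grouped by the sample titles. Libraries were made from TRIzol-extracted RNA with the SMARTER mRNA-Seq kit, per the labels' protocols. The tools StringTie 2.2.1, SAMtools 1.10 and HISAT2 2.1.0 and the assembly Rnor 6.0 are named in the submitters' processing notes. How reads were counted, with which annotation and whether by strand, is not given in the sources used here. Values of the deposited table are estimated counts per gene, not scaled, and 8.87% of the entries were not whole to within 1e-09, so genes with such entries appear to share reads with similar genes. No pair of libraries was a duplicate, with a chi-square per degree of freedom of at least 13.4.

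Estimated counts were rounded, filtered with filterByExpr (minimum count 10), scaled by TMM and tested in R 4.3.3 with edgeR 4.0.16 by its quasi-likelihood test, with group as the only term. P-values were adjusted over 14959 genes, with a threshold of 0.05. CPM are TMM-scaled, SE and 95% intervals were derived from the F statistic, and intervals are not adjusted. The pseudocount of the receptor ratio was 0.5, and log2 CPM for likeness used a prior count of 2. Precision is set by 3 libraries per group and, for Pdk4, by 10 to 11 reads per control.

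The members and lists were chosen with earlier results of these data known. Genes named are the 9 members, up to 5 called genes of each pathway list by smallest p (2 where none was called), and the 3 genes most like Nr3c1, Nr3c2 and each called member, and genes named beyond this rule are marked as such. Marker sums of meningeal fibroblasts (328 to 1075 CPM in HI, 219 to 507 CPM in controls), oligodendrocytes (682 to 754 CPM in HI, 889 to 1318 CPM in controls) and red blood cells (162 to 1072 CPM in HI, 30.5 to 519 CPM in controls) were also computed. A marker of the neuron list is not reported here. Alternatives were 3 other scalings, DESeq2 1.42.0, voom of limma 3.58.1, 2 other filters, a robust fit, 2 other thresholds, a block for the replicate number, and the fits that each drop 1 library.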

Additional observations from a re-analysis of the deposited data

How the results depend on the processing

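The count of called members was 1 with 3 other scalings, limma-voom, 2 other filters and a robust fit. It was 3 with DESeq2, 0 at a threshold of 0.01 (4 at an unadjusted p below 0.05), 3 at 0.1 and 0 to 2 without single libraries. For the whole table the main fit called 2074 genes. DESeq2 called 4200, the threshold of 0.01 gave 0 and that of 0.1 gave 4366. Fits without single libraries called 0 to 3689. The pathway lists had 23 calls, 0 at 0.01 and 0 to 32 without single libraries. The replicate numbers mark no shared animal or day in the labels, and deviations of libraries with the same number correlated at 0.24, 0.07 and -0.15 across genes, with HI 3 closest to control 2. With the replicate number as a block 2 members were called, Pdk4 and Zbtb16, and 18 list genes. The receptor ratio differed by -1.21 to -0.66 without single libraries and by -0.94 with the replicate block, which leaves the mean unchanged by construction.

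Pdk4 was called in 13 of 17 alternatives, Zbtb16 in 4, Nr3c2 in 2 and Nr3c1, Fkbp5, Tsc22d3, Sgk1, Hsd11b1 and Errfi1 in 0, with log2 fold changes of Pdk4 from 2.06 to 2.60. Signs turned only for 3 members close to 0, and the cause was not tested beyond the scalings, which move all genes. Hsd11b1 was at 0.082 with upper-quartile factors, 0.18 with total counts, 0.0031 with limma-voom, 9.2e-04 with the block, 0.11 without control 1 and 0.0035 without HI 2, and from -0.17 to 0.11 without single libraries. Fkbp5 was at 0.040 with total counts, 0.014 without HI 3 and 0.012 without control 3, and from -0.33 to 0.014 over the fits without single libraries. Tsc22d3 was at -0.015 with no filter, and at -0.086, -0.024 and -0.048 without HI 1, control 1 and control 2. Over the fits without single libraries its highest value was 0.085, and over all alternatives 0.22, with total counts. Depth limits Pdk4, with 10 to 11 reads in a control.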
